A study of Mus musculus with 5 samples.

Results

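The wild-type ventricles of the mouse heart at embryonic day 10.5 (E10.5) were compared with the wild-type atria in 1 Tag-seq library each, 2 of the 5 libraries of the series. Tag-seq counts a short sequence next to an NlaIII site near the 3′ end of each polyadenylated transcript, so that the number of tags stands for the amount of RNA of a gene. Both libraries came from C57BL/6 embryos of Theiler Stage 17, wild type in genotype, whose hearts were cut by hand with fine needles. Each was made from tissue pooled over at least 3 litters. The other wild-type libraries of the same strain and stage, from the atrio-ventricular canal (AVC) and the outflow tract (OFT), are given only as levels beside a gene, and the *Twist1* null AVC library was not used. Every gene was described by tags matched in sense to the transcripts of that gene alone, summed per gene. With 1 library per chamber there was no spread between replicates, so no difference below has a replicate check and no p-value is given. Intervals are exact 95% intervals that cover counting error only, and PCR copies of a tag could not be told from separate molecules.

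Atrial and ventricular muscle begin as one beating tube and take on separate contractile, electrical and endocrine programmes as the chambers grow out of it. In textbook accounts the nuclear receptor COUP-TFII (*Nr2f2*) sets the atrial programme, while *Hey2* and the Iroquois factors hold the ventricular one, and each chamber carries its own myosin light and heavy chains. Ventricular muscle also forms trabeculae, the inner ridges that answer to signals from the endocardium, whereas the inflow side of the atria holds the sinus venosus, the source of the pacemaker.

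The atria library held 4666514 high quality (HQ) tags, those of tag types seen more than 5 times, and the ventricles library held 4223810. They fell into 35109 and 32822 tag types, and 73.6% and 74.5% of the tags matched 1 gene. Haemoglobin genes made up 22.0% of the atria tags and 4.75% of the ventricles tags, and the AVC and OFT held 0.367% and 0.433%. Levels are therefore given as tags per 1000000 HQ tags outside the haemoglobin genes (TPM), of which the atria had 3641157 and the ventricles 4023133, and log2 ratios are ventricles over atria on that scale. Keeping haemoglobin in the totals adds 0.29 to every log2 ratio. A gene was called when it differed by at least 3-fold under both scalings with at least 30 tags in the higher library. A gene that 1 library did not list was set there at 5 tags for each of its tag types, which gives a lower bound on the ratio. A single tag type had to reach 1.65 TPM in the atria (1.49 in the ventricles) to be listed. The cardiomyocyte markers *Actc1*, *Tnnt2*, *Myh6*, *Myh7*, *Ttn*, *Tnni3* and *Actn2* were listed in both libraries.

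Most genes had similar levels in both chambers. Of 10705 genes listed in either library 8793 were listed in both, and 6981 outside the haemoglobin genes had at least 30 tags in 1 of them. The median log2 ratio of these was 0.06 (0.35 with haemoglobin kept), the quartiles were -0.41 and 0.52, and 80.6% of the genes lay within 2-fold. Levels in the libraries had a Spearman rho of 0.875 across the 6889 measured genes listed in both, which are not independent replicates. The calls were 266 genes higher in the ventricles (3.81% of those measured) and 171 higher in the atria (2.45%). Ventricle calls were thus 60.9% of all calls. The share was 71.5% with haemoglobin kept in the totals, 49.1% with TMM normalization and 50.1% with DESeq2 size factors. It was 51.7% with the totals without haemoglobin alone. Asking for 3-fold under both scalings cut the atria calls from 249 to 171 and left the ventricle calls at 266, so the rule itself favours the ventricle share.

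**Figure D1:**
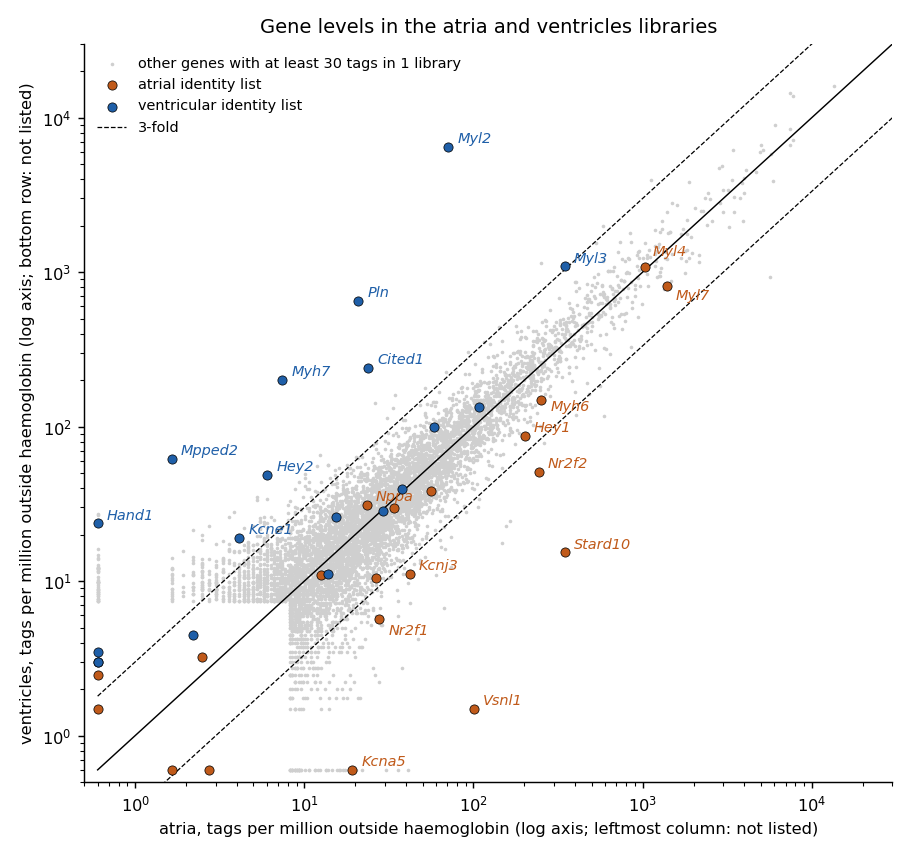
Levels of genes in the atria (x axis) and ventricles (y axis) libraries, in TPM outside haemoglobin on log axes, 1 point per gene, with genes that a library did not list drawn at its edge. Most genes lie near the diagonal, *Myl2* (71.1 and 6505 TPM) stands farthest above it and *Vsnl1* (100.2 and 1.49) farthest below it among the marked genes.

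The libraries also differed in the base composition of their tags. Tags with at least 10 guanine or cytosine bases among the 17 after the site made up 17.2% of the matched tags outside haemoglobin in the atria and 13.7% in the ventricles (19.6% in the AVC and 20.8% in the OFT). The median log2 ratio of tag types went from 0.43 where 3 or fewer of the 17 were guanine or cytosine to -0.70 where 13 or more were. Ratios centred on tag types of the same composition are therefore given for named ratios whose sign they turn and for some others, a choice made after seeing the data. The cause of this trend was not tested. Levels in the AVC and OFT were not adjusted for it, and with 1 library per region, region and library cannot be told apart in them.

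**Figure D2:**
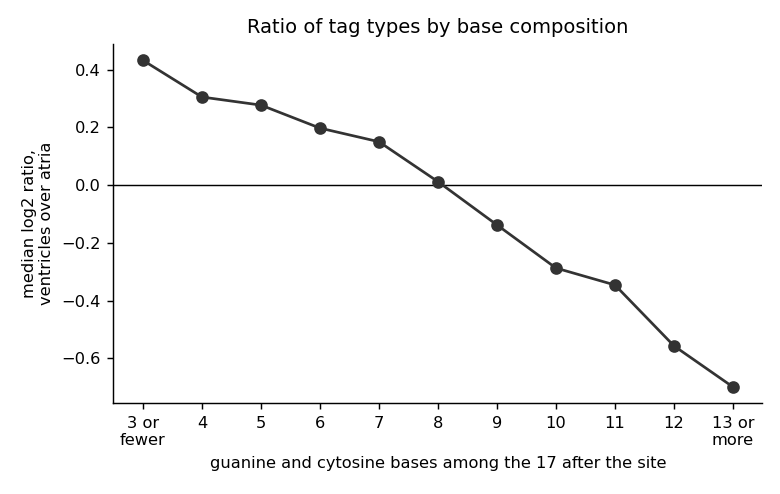
Median log2 ratio of ventricles over atria (y axis) of tag types with at least 30 tags in 1 library, by the number of guanine and cytosine bases among the 17 bases after the NlaIII site (x axis). The median falls at every step from 0.43 in the class of 3 or fewer to -0.70 in the class of 13 or more.

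The main tags of the genes that set the chambers apart most clearly are shown first, since each count below is a count of such a sequence. The 4 bases of the NlaIII site are in capitals, positions are on GRCm38 with GENCODE M21 transcripts, and tag counts are for that tag alone. The first group was read mostly in the ventricles.
*Myl2*, coding exon, chr5:122102707-122102727, plus strand: CATGgaccagaacagagacgg
*Pln*, 3′ untranslated region, chr10:53344245-53344265, plus strand: CATGgctcataaatttctttc
*Cited1*, coding exon, chrX:102247665-102247685, minus strand: CATGcaaaactgggtcaccgc
*Hey2*, 3′ untranslated region, chr10:30832530-30832550, minus strand: CATGtactcttatgcacttca
*Hand1*, 3′ untranslated region, chr11:57828825-57828845, minus strand: CATGcctgttgctctcaggta

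The *Myl2* tag was read 259 times in the atria and 26060 times in the ventricles, the *Pln* tag 59 and 2140 times, the *Cited1* tag 87 and 963 times and the *Hey2* tag 22 and 171 times. The *Hand1* tag was read 87 times in the ventricles and not listed in the atria. The second group was read mostly in the atria.
*Vsnl1*, 3′ untranslated region, chr12:11325321-11325341, minus strand: CATGtaatatttaaagaaaac
*Stard10*, 3′ untranslated region, chr7:101346277-101346297, plus strand: CATGgccccaataaatgaacc
*Nr2f2*, 3′ untranslated region, chr7:70353642-70353662, minus strand: CATGacaaaataacactgttg
*Shox2*, 3′ untranslated region, chr3:66971945-66971965, minus strand: CATGaaaacaaaattatttat

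The *Vsnl1* tag was read 218 times in the atria and 6 times in the ventricles, the *Stard10* tag 1269 and 62 times, and the *Nr2f2* tag 808 and 187 times. The *Shox2* tag was read 131 times in the atria and not listed in the ventricles.

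Ventricular identity genes were higher in the ventricles library in the contractile and regulatory groups alike. Of 21 genes in the list 19 were listed and 15 had 30 tags, of which 9 were called higher in the ventricles (3.81% of all genes measured were) and none in the atria. The median log2 ratio of the 15 was 2.22, against 0.06 over all genes. This list and those below were chosen with earlier results of these data known. Their shares and medians therefore describe the members and test nothing. All 3 contractile genes were called. *Myl2*, the ventricular regulatory light chain of myosin, had 259 atrial and 26170 ventricular tags, or 71.1 and 6505 TPM, and a log2 ratio of 6.51 (6.34 to 6.70). Its ratio of 91.4-fold was the largest of any gene with at least 100 tags. *Myh7*, the slow beta heavy chain that is the main one of the embryonic ventricle, had 7.42 and 200.3 TPM and a log2 ratio of 4.76 (4.20 to 5.37). *Myl3*, the ventricular essential light chain, was plainly present in the atria as well, with 1263 atrial and 4389 ventricular tags. Its 3.15-fold difference lay close to the limit of 3-fold, and the call was lost when unmatched tags 1 base from a haemoglobin tag were also left out of the totals, or when tags that start with thymine were.

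Among regulators, *Cited1*, a transcriptional co-activator, had 23.9 and 239 TPM in the atria and ventricles and a log2 ratio of 3.32 (3.01 to 3.66). *Hey2*, the Notch-linked repressor of atrial genes in the ventricle, had 22 atrial and 196 ventricular tags, a log2 ratio of 3.01 (2.37 to 3.72), and lost its call without tags that start with thymine, its main tag among them. *Hand1*, a factor of the left ventricle and outer curvature, had 95 ventricular tags and was not listed in the atria, a difference of at least 8.60-fold. Its level was 23.6 TPM in the ventricles and higher in the AVC and OFT, at 66.1 and 124. The Iroquois factors were scarce in the chamber libraries. *Irx4*, the ventricular member best known for repressing atrial myosin, had 12 tags in the ventricles and was not listed in the atria, *Irx2* had 14 tags in the ventricles alone, *Irx3* had 8 atrial and 18 ventricular tags, and none of these reached 30 tags. *Irx5* had 15.4 and 26.1 TPM and a log2 ratio of 0.76 (0.28 to 1.26), on the ventricle side but short of 3-fold. *Mycn*, a driver of growth in the compact wall, was likewise at 0.75, and at 0.32 when centred on base composition. *Irx1* and *Prdm16* were not listed in either chamber.

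The remaining ventricular genes split. *Pln*, phospholamban, the brake on the calcium pump of the sarcoplasmic reticulum, had 76 atrial and 2633 ventricular tags, or 20.9 and 654 TPM, a log2 ratio of 4.97 (4.64 to 5.32). *Mpped2*, a metallophosphodiesterase, had 6 atrial and 248 ventricular tags and a log2 ratio of 5.23 (4.08 to 6.69). It made 61.6 TPM in the ventricles, less than the 122 and 335 of the AVC and OFT. *Kcne1*, an accessory subunit of a repolarizing potassium channel, had 15 atrial and 77 ventricular tags, a log2 ratio of 2.22 (1.41 to 3.12), and lost its call when the 3′-most site alone was read. It was at 19.1 TPM in the ventricles and at 50.6 and 22.3 in the AVC and OFT. The other genes of this group were not called. *Fhl2*, a LIM protein of the sarcomere, *Rasl11b*, *Slit2* and *Cpne5* had log2 ratios of 0.33, 0.08, -0.04 and -0.30, and *Gpr22* had 12 tags in the ventricles alone.

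**Figure D3:**
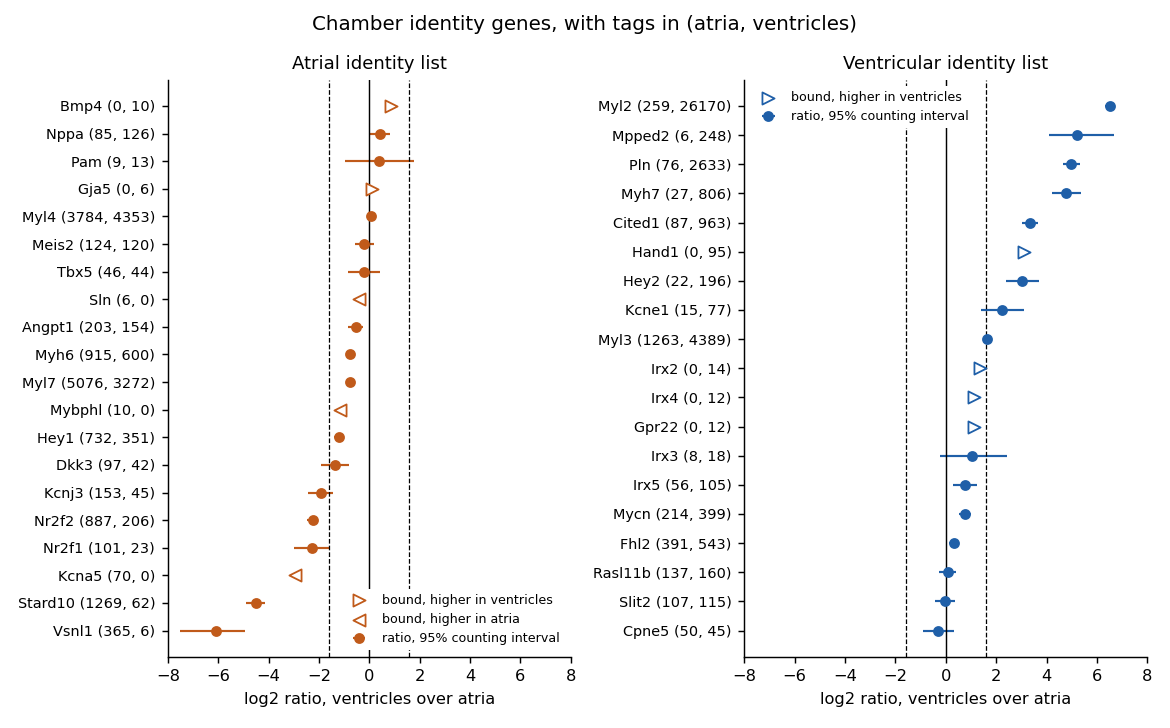
Log2 ratio of ventricles over atria (x axis) of listed genes of the atrial (left) and ventricular (right) identity lists, with 95% counting intervals and the tags of each gene in brackets. Open triangles are lower bounds on the difference, dashed lines mark 3-fold, and the ventricular genes reach 6.51 (*Myl2*) while the atrial genes reach -6.07 (*Vsnl1*).

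Atrial identity genes were higher in the atria library mainly among transcription factors and channels, less so among contractile genes. Of 22 genes 21 were listed and 16 had 30 tags, 7 were called higher in the atria (2.45% of all genes measured were) and none in the ventricles, and the median log2 ratio of the 16 was -1.28. *Nr2f2*, which encodes COUP-TFII, had 887 atrial and 206 ventricular tags, or 244 and 51.2 TPM, and a log2 ratio of -2.25 (-2.48 to -2.03). Its relative *Nr2f1* (COUP-TFI) had 101 atrial and 23 ventricular tags and a nearly equal log2 ratio of -2.28 (-3.00 to -1.61). Both COUP-TF genes were thus lower in the ventricles without being absent there. *Hey1*, the atrial counterpart of *Hey2*, had 201 and 87.2 TPM and a log2 ratio of -1.20 (-1.39 to -1.02), not past 3-fold. *Tbx5*, which in the mouse heart is graded from the inflow side, had 46 atrial and 44 ventricular tags, and *Meis2* 124 and 120, and neither was called. Their log2 ratios of -0.21 and -0.19 change sign when haemoglobin is kept in the totals.

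*Hey1* and *Hey2* ran in opposite directions. *Hey1* made 201 and 87.2 TPM in the atria and ventricles and *Hey2* made 6.04 and 48.7. In the AVC the levels were 5.45 for *Hey1* and 51.2 for *Hey2*, and in the OFT 12.2 and 84.5, so *Hey1* was the higher of the pair in both chambers and *Hey2* in the AVC and OFT.

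Channel, calcium and signalling genes held the largest atrial differences. *Vsnl1*, a calcium sensor of the visinin family, had 365 atrial and 6 ventricular tags, or 100.2 and 1.49 TPM, a log2 ratio of -6.07 (-7.53 to -4.93). *Stard10*, a lipid transfer protein, had 1269 atrial and 62 ventricular tags, a log2 ratio of -4.50 (-4.89 to -4.13). Both were lower in the other regions, with 25.3 TPM of *Vsnl1* in the AVC and none listed in the OFT, and 12.4 and 9.53 of *Stard10*. *Kcna5*, the atrial ultrarapid potassium channel, had 70 tags in the atria and none listed in the ventricles, a difference of at least 7.73-fold. It was at 19.2 TPM in the atria and no lower in the AVC and OFT, at 74.7 and 19.4. *Kcnj3*, a subunit of the acetylcholine-gated potassium channel that slows the atria, had 153 atrial and 45 ventricular tags and a log2 ratio of -1.91 (-2.42 to -1.42). Its partner subunit *Kcnj5* was not listed in either chamber. *Dkk3*, a secreted glycoprotein, had 97 atrial and 42 ventricular tags and a log2 ratio of -1.35 (-1.91 to -0.82), and *Angpt1*, the ligand of the endothelial receptor TIE2, was at -0.54, both on the atrial side and neither called.

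Several genes of the atrial list had few or no tags in both chamber libraries. *Sln*, sarcolipin, the atrial regulator of the calcium pump, had 6 tags in the atria and was not listed in the ventricles, and *Mybphl* had 10 and none. *Gja5*, connexin 40, had 6 tags of its own in the ventricles and none in the atria, with most of its tags shared with another gene, *Bmp4* had 10 in the ventricles alone, and *Pam*, which matures atrial peptide, had 9 and 13. None of these reached 30 tags in a chamber, while in the AVC and OFT *Mybphl* was at 17.3 and 27.3 TPM, *Pam* at 25.3 and 28.2 and *Bmp4* at 9.09 and 94.0. *Nppa*, the atrial natriuretic peptide, had 85 atrial and 126 ventricular tags, or 23.3 and 31.3 TPM, and a log2 ratio of 0.42 (0.02 to 0.84) on the ventricle side, against 318 TPM in the AVC. Its main tag, CATGcccccgcaggccctgag at chr4:148001105-148001125 on the plus strand, holds 14 guanine and cytosine bases in the 17, and centred on composition the log2 ratio was 1.09.

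The contractile genes of the atrial list differed little between the chambers. *Myl7*, the atrial regulatory light chain, had 5076 atrial and 3272 ventricular tags, or 1394 and 813 TPM, and a log2 ratio of -0.78 (-0.84 to -0.71). *Myl4*, the atrial essential light chain, had 1039 and 1082 TPM and a log2 ratio of 0.06 (-0.01 to 0.12), the smallest difference of the list. *Myh6*, the fast alpha heavy chain, had 915 atrial and 600 ventricular tags and a log2 ratio of -0.75 (-0.90 to -0.60). The atrial light chains were therefore abundant in both chambers, whereas the ventricular light chain *Myl2* was abundant in 1. Centred on composition, *Myl7* was at -0.43 and *Myh6* at -0.20.

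*Myh6* and *Myh7* are neighbours on mouse chromosome 14 with nearly the same coding sequence, and their main tags differ in a single base. The *Myh6* tag lies at chr14:54944300-54944320 and the *Myh7* tag at chr14:54972710-54972730, both in a coding exon on the minus strand. The capital marks the base that differs, C13T from *Myh6* to *Myh7*, counted from 1 at the first base of the NlaIII site.
*Myh6*: catgaggaagagCgagcggcg
*Myh7*: catgaggaagagTgagcggcg

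The first was read 915 times in the atria and 600 times in the ventricles, and the second 27 and 778 times. In the atria the alpha tag thus outnumbered the beta tag, and in the ventricles the beta tag was the more frequent. A misread base could turn one tag into the other. No unmatched tag 1 base from either of them was listed in either library, and 39 atrial and 55 ventricular tags that both genes share were given to neither. Both genes had higher levels in the AVC and OFT libraries, where *Myh6* reached 2706 and 908 TPM and *Myh7* 1061 and 2636. *Tnnt2* was also higher there, at 3992 and 5932 TPM against 253 and 476 in the atria and ventricles. *Actc1* was lower there, at 6306 and 6398 TPM against 7410 and 14548. The part of the region and of the library in such levels was not tested.

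The sinus venosus and pacemaker genes were on the atrial side, carried by their transcription factors. Of 11 genes 9 were listed, 6 had 30 tags and 4 were called higher in the atria (2.45% of all genes were), *Vsnl1* of the atrial list among them. *Shox2*, which shields the sinus node from the working muscle programme, had 131 tags in the atria and none listed in the ventricles, a difference of at least 28.9-fold. *Tbx3*, a repressor of the working programme in the conduction system, had 34 and none, at least 3.76-fold, and its call was lost when both libraries were thinned to equal depth or the 3′-most site alone was read. The AVC and OFT held more *Tbx3*, 90.4 and 14.7 TPM, than the 9.34 of the atria. *Smoc2* and *Isl1* were also listed in the atria alone, with 28 and 7 tags, both under 30. *Tbx18*, a factor of the sinus horns that the epicardium also makes, had 329 atrial and 340 ventricular tags, and *Hcn4*, the main pacemaker channel, had 60 and 91, and neither was called. *Cacna1g* and *Cacna1d* were not listed in either chamber.

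Of the trabecular signalling genes, the abundant secreted peptides had higher levels in the ventricles. Of 20 genes 16 were listed and 12 had 30 tags, 2 were called higher in the ventricles (3.81% of all genes were) and none in the atria, and the median log2 ratio was 0.40, against 0.06 over all genes. *Nppb*, brain natriuretic peptide, the abundant secreted product of trabecular muscle, had 4064 atrial and 15856 ventricular tags, or 1116 and 3941 TPM, and a log2 ratio of 1.82 (1.77 to 1.87). *Bmp10*, the growth factor of trabecular muscle, had 139 atrial and 445 ventricular tags, a log2 ratio of 1.53 (1.26 to 1.82) that was 2.90-fold without haemoglobin in the totals and 3.54-fold with it, and so just missed the call. Both peptides were also well above the listing limit in the atria. *Vegfa* had 13 tags in the ventricles alone, and the ligands *Nrg1*, *Dll4* and *Jag1* had no tag of their own in either chamber. *Has2*, the hyaluronan synthase of the cardiac jelly, had 8 atrial and 39 ventricular tags, and its call was lost when missing tag types were filled or the 3′-most site alone was used. The other receptors and matrix genes ranged from -0.63 (*Efnb2*) to 0.68 (*Notch1*), with *Erbb2* at -0.19, *Erbb4* at 0.42, *Vcan* at 0.07 and the protease *Adamts1*, with 538 and 546 tags, at -0.12. Centred on composition *Erbb2* lay at 0.30 and *Vcan* at -0.22. *Ephb4* had 15 and 20 tags, and *Nppa*, *Irx3* and *Gja5* are described above. Of the targets, *Cdkn1c*, a cell cycle inhibitor, had 1066 and 1238 TPM and *Hes1* a log2 ratio of 0.38, and *Heyl* was not listed.

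The core cardiac transcription factors were mostly shared. Of 15 genes 13 were listed and 9 had 30 tags. Of these 1 was called higher in the ventricles (3.81% of all genes were) and none in the atria (2.45%). The median log2 ratio was 0.34, against 0.06 over all genes. The call was *Zfpm2* (FOG2), the cofactor of GATA4, with 9 atrial and 35 ventricular tags. This call was lost after centring on composition. The 4 factors with most tags were *Smyd1*, a muscle methyltransferase at 0.85 (0.73 to 0.96), *Tbx20* at 0.26 (0.05 to 0.47), *Hand2* at 0.34 (0.12 to 0.56) and *Mef2a* at -0.02 (-0.37 to 0.34) (log2 ratios with intervals), the last at 0.02 after centring. *Gata4* and *Gata6* had log2 ratios of opposite sign, -1.08 (44 and 23 tags) and 1.34 (31 and 87 tags), and -0.52 and 0.91 after centring, and neither was called. *Srf* was at -1.05 and *Smarcd3* at 0.82. *Gata5*, *Mef2c*, *Hopx* and *Myocd* had fewer than 30 tags in each chamber, *Myocd* in the ventricles alone. *Nkx2-5* and *Tbx2* were not listed in either chamber, while their AVC levels were 14.4 and 20.2 TPM. A gene not listed had no tag type seen more than 5 times.

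Sarcomere genes were higher in the ventricles as a group. Of 41 genes 39 were listed and 38 had 30 tags, 31 of these were above a log2 ratio of 0 and 7 below, 7 were called higher in the ventricles (3.81% of all genes were) and none in the atria (2.45% of all genes). The median was 0.90, against 0.06 over all genes, and it stayed between 0.82 and 1.19 over the settings tried. Besides *Myl2*, *Myh7* and *Myl3* the called genes were *Hspb7*, a small heat shock protein of the sarcomere at 2.28 (1.42 to 3.26), *Myoz2*, a calcineurin-binding protein of the Z-disc at 2.18 (1.49 to 2.93), *Lmod2*, the nucleator of thin filaments at 2.15 (1.09 to 3.37), and *Xirp1* at 1.69 (1.24 to 2.17). These 4 were low in the chambers, with atrial and ventricular levels of 3.57 and 17.4 TPM for *Hspb7*, 5.77 and 26.1 for *Myoz2*, 2.47 and 10.9 for *Lmod2* and 14.3 and 46.2 for *Xirp1*. In the AVC and OFT *Hspb7* was at 241 and 255 TPM, *Xirp1* at 91.2 and 81.8, *Lmod2* at 21.3 and 15.3 and *Myoz2* at 16.2 and 8.77. The call of *Hspb7* was lost when every missing tag type was filled. The abundant genes of the shared muscle machinery gave smaller ratios. *Actc1*, cardiac actin, had 26980 atrial and 58527 ventricular tags, or 7409.7 and 14548 TPM, and a log2 ratio of 0.97 (0.95 to 0.99).

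Most other thin filament and Z-disc genes were on the ventricle side without a call. Troponin T (*Tnnt2*) was at 0.91, skeletal actin (*Acta1*) at 1.12, tropomodulin (*Tmod1*) at 1.10 and tropomyosin (*Tpm1*) at 0.59 on the log2 scale. Troponin C (*Tnnc1*) was at 0.24 and slow troponin I (*Tnni1*) at 0.47, and of the Z-disc genes *Actn2* was at 1.29, *Pdlim5* at 1.44 and *Cryab* at 0.91. Among the 7 genes below 0 were *Myl7* and *Myh6* of the atrial list, *Tpm2* (-0.52), *Csrp3* (-0.50), *Tnni3* (-0.23) and *Ankrd1* (-0.23), the last pair of which lay above 0 with haemoglobin kept in the totals. After centring on composition *Csrp3*, *Tnni3* and *Ankrd1* lay at 0.05, 0.11 and 0.04, while *Ttn* went from 0.04 to -0.22. The other genes of the list ran from 0.04 to 1.55 (*Mybpc3*, myosin binding protein C), *Nrap* had 7 and 26 tags, and *Myom2* and *Tcap* had no tag of their own. In whole chambers more muscle cells and more RNA per muscle cell cannot be told apart.

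Calcium handling and conduction genes went both ways. Of 33 genes 27 were listed and 19 had 30 tags, 5 were called higher in the ventricles (3.81% of all genes were) and 1 in the atria (2.45%), with a median of 0.46 against 0.06 over all genes. The pump and its inhibitor went apart. *Atp2a2*, the calcium pump SERCA2, had 5376 atrial and 3544 ventricular tags and a log2 ratio of -0.75 (-0.81 to -0.68), while its inhibitor *Pln* was at 4.97. The ratio of *Atp2a2* lay at -1.16 after centring, on the atrial side under either. *Hrc*, the calcium binder of the sarcoplasmic reticulum lumen, had 38 atrial and 160 ventricular tags and a log2 ratio of 1.93 (1.41 to 2.48), and *Trdn*, triadin, had 15 and 48 tags and a log2 ratio of 1.53. *Ryr2*, the release channel, had 244 and 244 tags, the calcium store *Casq1* had 33 and 31 and its relative *Casq2* had 42 and 53, and *Slc8a1*, the sodium-calcium exchanger, had 461 and 361 TPM and a log2 ratio of -0.35 (-0.46 to -0.25). *Calr*, calreticulin, was not listed in either chamber, against 290.3 TPM in the AVC.

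Among surface channels *Cacna1c*, the L-type calcium channel, was at 0.53, *Cacna1h* at -0.82 and the sodium pump subunit *Atp1b1* at 0.66. *Fxyd1*, a regulator of that pump, was at 0.79. *Kcnq1* and *Kcnh2* were listed in the atria alone with 7 and 6 tags and *Jph2* in the ventricles alone with 6, *Kcnj2* had 15 and 15 and *Cacna2d2* had 7 and 8, and *Hcn2* had no tag of its own. Of the gap junction genes *Gja1*, connexin 43, had 252 atrial and 912 ventricular tags, or 69.2 and 227 TPM, and a log2 ratio of 1.71 (1.51 to 1.92). *Gja4*, connexin 37, had 8 and 33, also called higher in the ventricles, and *Gjc1*, connexin 45, had 81 and 69 and a log2 ratio of -0.38. The AVC and OFT were below both chambers in *Gja1*, at 32.4 and 22.5 TPM.

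Genes of energy metabolism leaned to the ventricles by a smaller amount. Of 36 genes 31 were listed and 26 had 30 tags, 21 of the 26 above 0 and 5 below. Only 1 of the 26 was called, higher in the ventricles, which is close to the share over all genes (3.81%). The median log2 ratio was 0.47, against 0.06 over all genes. The call was *Fabp3*, the fatty acid binding protein of heart muscle, with 418 atrial and 1420 ventricular tags and a 3.07-fold difference, and it was lost when tags 1 base from an abundant tag were removed or left out of the totals around haemoglobin. The most abundant genes were *Ldha*, lactate dehydrogenase, with 6043 and 8997 TPM and a log2 ratio of 0.57, *Pgk1*, phosphoglycerate kinase, with 5024 and 6656 and 0.41, *Tpi1* with 1692 and 1758 and 0.06, and *Ckb*, brain creatine kinase, with 739 and 1567 and 1.08. *Hk1* (1.42) and *Pkm* (1.31) led the glycolytic genes on the ventricle side, and the transporters *Slc16a1* (-1.03), *Slc2a3* (-0.68) and *Slc2a1* (-0.52) were on the atrial side. The cytochrome oxidase subunits *Cox6a2* (-0.46) and *Cox7a1* (-0.50) were also below 0, but lay at 0.09 and 0.06 when centred on composition, and *Tpi1* at -0.14.

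Cell cycle genes were spread evenly about 0. Of 32 genes all were listed and 29 had 30 tags, 15 were above 0 and 14 below, and the median was 0.06. None was called in either direction, while of all genes 3.81% were called higher in the ventricles and 2.45% in the atria. The range was from -1.20 (*Cdk6*) to 0.74 (*Ccne1*). The genes with most tags were *Cdkn1c*, *Mcm6* (-0.04), *Cdk1* (0.70) and *Rrm2* (0.18).

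Retinoic acid genes, of interest because the signal comes from the inflow side, were mostly at the listing limit. Of 16 genes 9 were listed and 3 had 30 tags, too few to set against the shares called over all genes (3.81% and 2.45%). None of the 3 was called. *Aldh1a2*, the synthesizing enzyme, had 92 and 88 tags and the receptor *Rarb* 53 and 41. *Crabp1* (17 tags), *Aldh1a3* (9) and *Stra6* (9) were listed in the atria alone and *Dhrs3* (8) in the ventricles alone, and the receptor *Rara* had 13 and 10 and *Rxra* had 12 and 15.

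**Figure D4:**
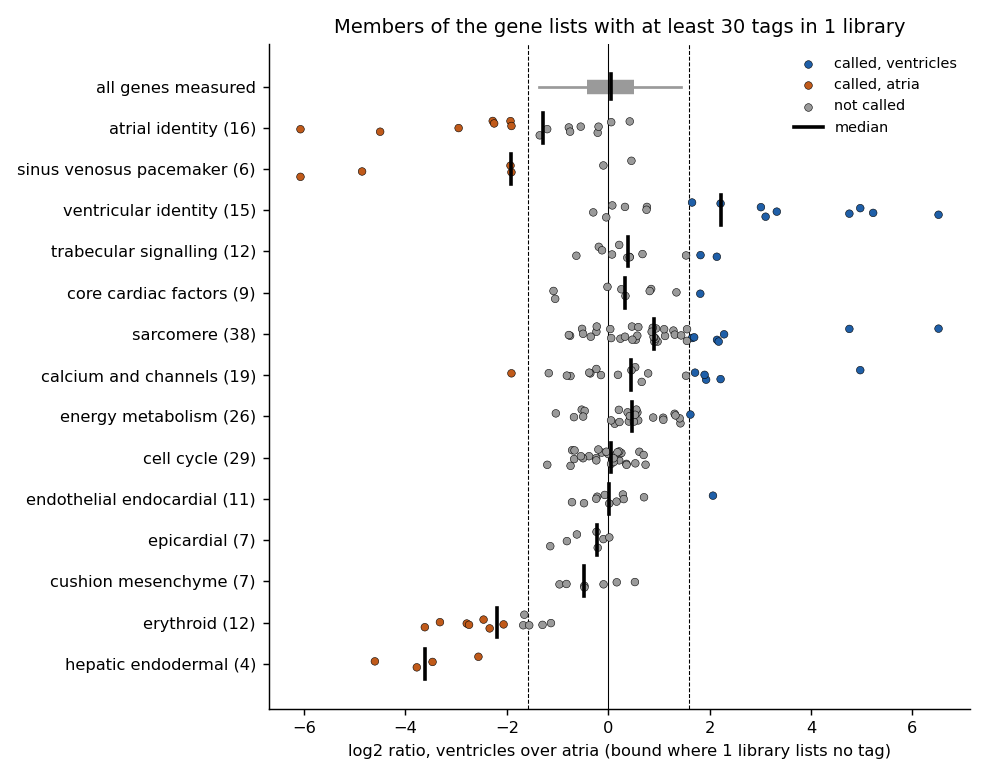
Log2 ratio of ventricles over atria (x axis) of members of 14 gene lists (rows, with the number of members that had at least 30 tags in 1 library) and, in the top row, the median, quartiles and 5th to 95th percentile of all 6981 genes. Black bars are medians, dashed lines mark 3-fold, colours mark calls, which need 3-fold under both scalings so that a few grey points lie past the line, and the erythroid and hepatic rows lie wholly below 0.

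Red cell RNA was higher in the atria. The haemoglobin genes were 4.62-fold higher in the atria as a share of HQ tags. *Hbb-y*, the main embryonic beta globin, had 724798 atrial and 149395 ventricular tags, *Hbb-bh1* 224006 and 37700 and *Hba-x* 54935 and 9942. *Hba-a1* had 310 and 52 tags of its own, *Hba-a2* had 125 and 55, and *Hbb-bh2*, *Hbb-bt* and *Hbb-bs* had tags shared with other genes only. All 12 other red cell genes with 30 tags were on the atrial side, 7 of them called (2.45% of all genes were), with a median log2 ratio of -2.20. *Alas2*, the first enzyme of haem synthesis in red cells, had 570 atrial and 91 ventricular tags, *Blvrb* 2152 and 470 and *Car2* 601 and 99. The summed level of the 14 red cell genes outside haemoglobin was 1647 TPM in the atria, against 403 for the ventricles. The methods of the study state that the chambers were punctured and rinsed to take out blood. What these cells add to the atrial level of any other gene was not tested.

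Liver and gut genes were higher in the atria than in the ventricles. Of 16 genes 9 were listed, all in the atria and 8 of them there alone. The 4 with 30 tags were called higher in the atria (2.45% of all genes were). Of these *Alb*, *Apoa2* and *Afp*, with 1 tag type each, reached 30 tags through the atria alone, which all but fixed their call. *Alb*, serum albumin, had 110 tags and none listed in the ventricles, *Apoa2* had 62, *Afp*, fetal albumin, had 50, and *Trf*, transferrin, had 267 atrial and 50 ventricular tags, a call lost after centring on composition. *Rbp4* (22), *Ttr* (9), *Apoa1* (9), *Fgb* (8) and *Epcam* (6) were listed in the atria alone. The summed level was 149 TPM in the atria, against 12.4 for the ventricles, with *Foxa1*, *Foxa2*, *Shh*, *Nkx2-1*, *Apoa4*, *Cldn6* and *Spink1* listed in neither. The AVC and OFT held some of these genes too, with *Trf* at 16.2 and 15.3 TPM and *Apoa2* at 6.61 and 6.48, and in the AVC alone *Rbp4* at 3.63, *Afp* at 2.81 and *Alb* at 1.65. The part of adjoining tissue in the atrial calls was not tested.

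Among the genes of the other tissues of the chamber wall the only call was *Emcn*. Of all genes 3.81% were called higher in the ventricles and 2.45% in the atria, so few calls in lists this short say little. Endothelial and endocardial genes had 15 of 17 listed, 11 with 30 tags, a median of 0.02 and summed levels of 523 TPM in either library. *Npr3*, *Kdr*, *Tek* and *Ramp2* had log2 ratios of -0.22, -0.07, 0.16 and 0.31, *Tek* was at -0.27 after centring, and *Emcn* was called higher in the ventricles on 8 and 37 tags, a call lost when the 3′-most site alone was read or missing tag types were filled. Epicardial genes had 9 of 11 listed, 7 with 30 tags and a median of -0.23, or 0.06 with haemoglobin kept, 6 below 0 and 1 above, with *Tcf21* at -0.62, *Upk3b* at -1.14 and *Upk1b* at -0.82. Cushion mesenchyme genes had 13 of 16 listed, 7 with 30 tags and a median of -0.47, with 5 below 0, 2 above and none called. Their levels were far below those of the AVC for *Twist1*, with 81.3 and 58.7 TPM in the atria and ventricles and 921 in the AVC, while *Col1a2* and *Postn* had log2 ratios of -0.47 and -0.96, and *Col3a1* -0.09. Macrophage genes were near the limit, with 2 of 8 listed, *C1qb* at 6 and 13 tags and *Csf1r* at 7 in the atria alone.

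Genes that answer to dissection were mostly low. Of 15 immediate early and heat shock genes 10 were listed and 6 had 30 tags, 5 of them above 0 and 1 below. Their median log2 ratio was 0.96, against 0.06 over all genes. *Fos* (6 and 32 tags in the atria and ventricles) and *Hmox1* (8 and 33) were called higher in the ventricles (3.81% of all genes were). The call of *Fos* was lost in 6 of 12 other settings and that of *Hmox1* after thinning. *Jun*, *Egr1* and *Atf3* were at 0.58, 0.87 and 1.05, and *Hsph1*, with 82.1 and 58.4 TPM, at -0.49. The metallothionein *Mt2*, a metal-binding protein, was among the most abundant RNAs of the atria, with 20581 atrial and 3741 ventricular tags, or 5652 and 929.9 TPM. It had 6.11 and 8.20 in the AVC and OFT. The zinc exporter *Slc30a1* was at -1.01, and *Mt1* and *Mt3* had no tag of their own. All but 7 of the *Mt2* tags in the atria were of 1 tag type in the 3′ untranslated region, CATGtaactgacaataaaagc at chr8:94173529-94173549 on the plus strand, and the call was lost without tags that start with thymine.

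Outside the lists, the largest ratios among called genes with at least 100 tags added 6 genes in the ventricles and 5 in the atria. In the ventricles these were *Adprhl1*, a heart relative of the ADP-ribosylhydrolases, with 110 tags and none listed in the atria, and *Gtsf1*, a factor of the piRNA pathway, with 108 and none, differences of at least 19.9-fold and 19.5-fold. *Sh3kbp1*, an adaptor of receptor endocytosis, had 14 atrial and 113 ventricular tags, *Rps6ka6*, a ribosomal S6 kinase, 13 and 104, *Retreg1*, a receptor for turnover of the endoplasmic reticulum, 19 and 140, and the nucleoporin *Nup62* 19 and 135. The calls of *Rps6ka6* and *Nup62* were lost without tags that start with thymine. In the atria *Slc25a37*, the mitochondrial iron carrier of red cell precursors, had 535 and 71 tags, the membrane skeleton gene *Dmtn* had 149 with none listed in the ventricles, *Add2* had 129 and 19, and the glutamine carrier *Slc38a5* had 138 and 11. *Cav1*, the coat protein of caveolae, had 172 atrial and 17 ventricular tags, and its call was lost without tags that start with thymine. The red cell genes *Ermap* and *Alas2* and the liver gene *Alb* also stood among the 12 largest atrial ratios, beside *Vsnl1*, *Shox2* and *Stard10*.

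Some genes had more than 1 abundant tag type, and the ratio of each is given as a description. These tag types share a library, are not replicates and add up to the gene's own ratio, which sets the call. *Pln* had log2 ratios of 5.04 and 4.58 at a pair of tags 3′-most in different transcripts, *Gja1* had 1.62 and 1.85, and *Nr2f2* had -2.26 at its main tag and -2.68 at the 3′-most one. For *Vsnl1* the main tag gave -5.33, and a second tag with 138 reads in the atria was not listed in the ventricles. *Actc1* was the exception among those shown, with 0.97 and 1.32 at its more frequent tags and -0.43 at a rare one of 28 and 23 reads.

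**Figure D5:**
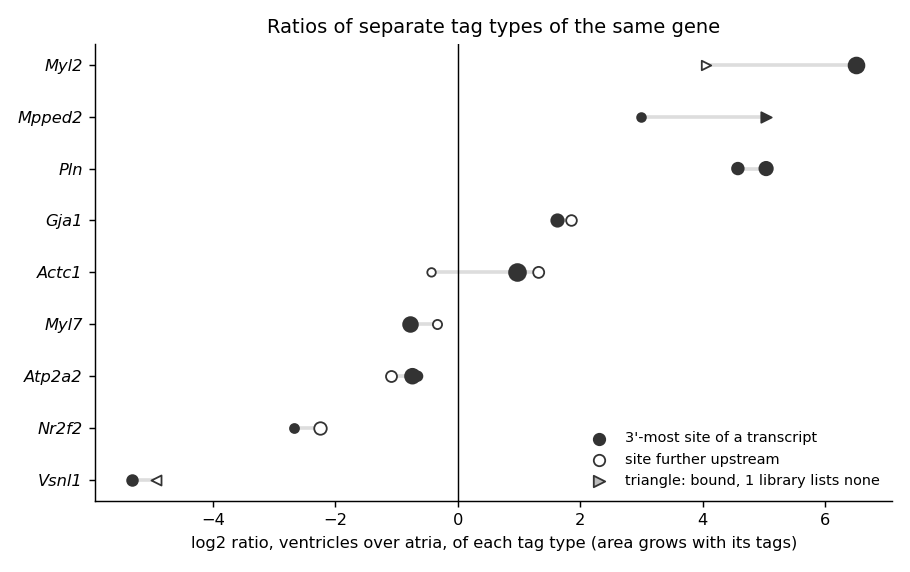
Log2 ratio of ventricles over atria (x axis) of each tag type with at least 50 tags in 9 genes (rows), filled where the site is the 3′-most of a transcript and open where it lies upstream, with triangles for bounds. All tag types of a gene lie on the same side of 0 except in *Actc1*, whose tags run from -0.43 to 1.32.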

How the data were processed

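The deposited files hold raw counts of reads per tag type. Per the study's methods the authors passed reads through the Chastity filter, took the first 21 bases as the tag and listed tag types with more than 5 tags, and the smallest deposited count is 6. Replicates were not made. Removal of tags with a mismatch and mapping to genes were not applied in these count files, and the labels name the build mm9.

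Virtual tags (the 17 bases after each NlaIII site) were taken with Python 3.11.15 from 33363 GENCODE M21 transcripts linked to RefSeq, with 20 adenines added at the end. Of 315529 virtual tags 308949 belonged to 1 of 24303 genes. Tags shared by genes, antisense or unmatched tags stayed in the totals but were given to no gene. No genome sequence was searched. Groups follow the labels, 1 library each, so ratios were described and not tested. Level intervals are exact Poisson, ratio intervals Clopper-Pearson. Scripts were tested on simulated data.

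The members and gene lists were chosen with earlier results of these data known. Named genes are all members of both identity lists, from each other list the 4 with most tags and up to 6 called members, and the 12 largest ratios in each direction among called genes with at least 100 tags. Further members were named to account for each list. Some members are not reported here by name, though counts and medians include them. Alternatives used edgeR 4.0.16 and DESeq2 1.42.0 in R 4.3.3 for scaling, and changed the fold, the tag limits, the sites, the transcripts, the fill, the error removal, the tag sequence and the depth. The *Twist1* null library was left out.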

Additional observations from a re-analysis of the deposited data

How the results depend on the processing

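No paired analysis was possible because each chamber has 1 library, so there is 1 pair at most. In the 11 or 12 other settings run for each of 54 named calls, 2 of them chosen after seeing the data, no call changed side, and 38 calls were kept in all of them. The ventricle count of 266 became 430 with haemoglobin kept in the totals, 720 at 2-fold, 71 at 5-fold, 424 with 10 tags in the higher library and 65 with 100. The atria count of 171 became 264 with TMM normalization, 258 with DESeq2 size factors, 402 at 2-fold, 63 at 5-fold, 318 with 10 tags and 33 with 100. Leaving out unmatched tags 1 base from haemoglobin tags gave 236 and 171 genes, all of which had to be among the calls above. That setting keeps the totals with haemoglobin, which bind the atria calls, and only tightens the limit for the ventricle calls. Centring on base composition gave 215 and 170 genes, of which 182 and 150 were among the calls above. The median of the ventricular identity list moved from 2.22 to 1.34 with 10 tags, 2.81 with the 3′-most site alone and 3.10 without tags that start with thymine, each over another number of genes (19, 13 and 11 against 15). The calls of *Mt2*, *Hey2* and *Cav1* were lost without such tags because that setting removes their main tag. The pools are 1 per chamber, so spread between embryos limits every value and was not measured.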

Other observations

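Tags 1 base from an abundant tag were frequent. In the ventricles 22 unmatched tag types lay 1 base from the main *Myl2* tag and summed to 8938 tags, or 34.3% of its 26060, with 3291 in the largest. Around the *Nppb* tag such tags summed to 20.4% in the ventricles and 6.94% in the atria, and around the *Hbb-y* tag to 21.4% and 19.5%. Unmatched tags 1 base from a haemoglobin tag made up 4.95% (atria) and 1.10% (ventricles) of all HQ tags, and they stay in the totals used here.

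Some genes that were plain in the AVC and OFT were listed in neither chamber. Of 5394 genes with at least 100 tags in both the AVC and the OFT 85 had no tag in either chamber, *Calr* with 290.3 and 409 TPM among them. Of 2857 genes with at least 100 tags in both chambers 1 had none in the AVC and OFT. The cause was not tested.

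Between tag types of the same gene, those that start with thymine after the site had log2 ratios of ventricles over atria that were higher by a median of 0.24 than the others (495 genes). Such tags made up 21.2% of tags outside haemoglobin in the atria, 19.6% in the ventricles, 13.6% in the AVC and 14.9% in the OFT.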
